A study of Mus musculus with 20 samples.

Results

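Imprinted genes, which are transcribed mainly from the copy inherited from 1 parent, were followed in mouse ovaries as a set of 38 genes listed by symbol and found in the deposited tables by their Ensembl identifiers, out of 54838 genes listed there. The set held 18 maternally expressed genes, 19 paternally expressed genes and Gnas, whose transcripts differ in the parental copy they use, and these genes lay in 18 loci, 7 of which held more than 1 of them. Membership went by symbol with no cut-off on measured values, but the list was chosen with earlier results of these data known. The ovaries came from FL1, a Dummerstorf line selected over many generations for high fertility, and from ctrl, an unselected line of the same origin kept by rotational mating. Each of the 4 groups, ctrl estrus, FL1 estrus, ctrl diestrus and FL1 diestrus, held 5 libraries from 5 females aged about 77 days, staged by vaginal smears. Neither line carried a transgene, the genotype label reads WT for ctrl and FL1 for the selected line, and each line is a single population, so that line and population history cannot be told apart. Fat and oviduct had been removed, and the oviduct markers Ovgp1 and Foxj1 summed to at most 3.61 CPM (counts relative to the normalised size of the library) in any library and fat markers to 16.8 to 44.6 CPM, while granulosa markers summed to 1000 to 2972 CPM and oocyte markers to 109 to 364 CPM.

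Deposited totals ran from 5991223 to 10352718 counts (median 6957533). The library of ctrl estrus replicate 5 stood apart. Its mean rank correlation with the other libraries of its group was 0.951, against 0.967 to 0.971 for those 4, and its granulosa markers were the lowest of the 20 libraries (1000 CPM in sum) while its luteal markers were the highest of the ctrl estrus libraries (27069 CPM in sum). Many of the results that use it, but not all, are therefore given with and without it. The reads were counted per gene, so neither the parental copy a read came from nor the methylation of a locus was measured, and in bulk ovary fewer cells of a type cannot be told apart from less RNA per cell. The parental classes used throughout are those of the list and were not checked in the ovary.

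Genomic imprints are DNA methylation marks set in the germ line, on the maternal copy in growing oocytes and on the paternal copy in male germ cells, and kept in somatic cells through early development. Each imprinted cluster is governed by a control region whose methylated and unmethylated copies switch neighbouring genes on or off. Many paternally expressed genes favour fetal and placental growth, and many maternally expressed ones restrain it, and several stay active in adult endocrine tissue.

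Promoters are shown here for 5 of the 13 genes that differed between the lines or the stages. Germ-line imprints are marks on CpG dinucleotides, and the windows of the imprinted genes differed widely in how many CpG they hold. Whether the 5 windows carry such marks was not measured. RefSeq windows of 300 bases (250 before to 50 after a RefSeq start, GRCm38.p6) were matched for 30 of the 38 genes. Peg10 and Impact, 2 of the genes that differed, were among those without a window. For each gene the window nearest its annotated start was taken. The RefSeq starts used for Phlda2, Grb10, Ndn, Mirg, Mest and Plagl1 lay 626 to 30328 bases from the annotated ones. The 30 windows held from 0 CpG (Rian) to 45 (Grb10), with a median of 11.5, where the median of all 32851 windows in the table was 7. Median GC content was 56.5% against 52.7%. The hexamer TGCCGC or its complement GCGGCA, the core of the sequence that the imprint-keeping zinc finger protein ZFP57 recognises, was found in 7 of 30 windows (23.3%) and in 11.6% of all windows. The motif holds a CpG itself, so a window rich in CpG has more chances to contain it, and a match is a description of letters only. The 5 windows below are read 5′ to 3′ on the strand of the gene, with CpG in capitals and the RefSeq start at base 251. That start lay 12 bases from the annotated one for Peg3 and 50 bases for Nap1l5. Peg3 on chromosome 7 (chr7:6730370-6730669, minus strand) has 13 CpG, Nap1l5 (chr6:58907077-58907376, minus strand) has 17, Nnat (chr2:157559828-157560127, plus strand) has 17, Dlk1 (chr12:109452573-109452872, plus strand) has 9 and Asb4 (chr6:5383136-5383435, plus strand) has 6.
Peg3: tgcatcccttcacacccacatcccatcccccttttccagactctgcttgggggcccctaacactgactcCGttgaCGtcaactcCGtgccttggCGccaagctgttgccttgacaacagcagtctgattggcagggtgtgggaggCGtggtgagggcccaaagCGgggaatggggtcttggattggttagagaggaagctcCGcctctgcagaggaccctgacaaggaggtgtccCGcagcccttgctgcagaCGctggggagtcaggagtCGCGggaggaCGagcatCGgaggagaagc
Nap1l5: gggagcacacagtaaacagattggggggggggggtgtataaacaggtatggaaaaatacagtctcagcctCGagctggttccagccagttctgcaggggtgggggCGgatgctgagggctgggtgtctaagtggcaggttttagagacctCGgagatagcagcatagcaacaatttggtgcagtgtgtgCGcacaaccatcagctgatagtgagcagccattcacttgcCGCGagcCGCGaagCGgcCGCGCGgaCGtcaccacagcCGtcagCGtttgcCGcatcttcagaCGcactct
Nnat: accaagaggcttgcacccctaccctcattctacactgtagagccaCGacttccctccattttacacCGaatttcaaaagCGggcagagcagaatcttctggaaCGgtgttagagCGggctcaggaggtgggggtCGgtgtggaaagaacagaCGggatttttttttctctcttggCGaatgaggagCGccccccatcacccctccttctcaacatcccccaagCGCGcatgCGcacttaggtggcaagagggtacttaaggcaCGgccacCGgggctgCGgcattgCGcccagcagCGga
Dlk1: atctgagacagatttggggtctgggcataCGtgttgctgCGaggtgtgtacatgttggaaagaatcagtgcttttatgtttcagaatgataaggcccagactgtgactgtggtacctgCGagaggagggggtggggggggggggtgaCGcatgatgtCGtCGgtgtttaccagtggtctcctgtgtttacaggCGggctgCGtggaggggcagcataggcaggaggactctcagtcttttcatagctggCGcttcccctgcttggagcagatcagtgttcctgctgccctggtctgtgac
Asb4: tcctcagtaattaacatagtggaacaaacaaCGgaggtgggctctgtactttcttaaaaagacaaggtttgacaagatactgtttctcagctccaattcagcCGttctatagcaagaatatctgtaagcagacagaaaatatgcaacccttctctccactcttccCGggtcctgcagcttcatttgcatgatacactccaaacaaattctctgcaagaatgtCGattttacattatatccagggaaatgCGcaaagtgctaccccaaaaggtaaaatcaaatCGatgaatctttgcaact

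The Nap1l5 window held the ZFP57 hexamer at bases 227 and 278 and the Nnat window held it at base 278, while the other 3 windows held none. Nap1l5 and Nnat are short genes, and in the mouse each lies within an intron of a larger gene. Asb4 had the fewest CpG and the lowest GC content of the 5 (40.3%). The 5′ ends of Peg3 and the divergent gene Usp29 lay 147 bases apart, and those of Peg10 and Sgce lay 99 bases apart.

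Most of the listed genes were detected at moderate levels. Because the 3′ mRNA-Seq kit reads the tail end of each transcript, CPM were set side by side between genes without a length correction. Whether all transcripts, the noncoding ones among them, were captured equally well was not checked, so the order of levels is approximate. Gnas, the gene of the stimulatory G protein alpha subunit used by gonadotropin receptors, was the most abundant, with a mean of 1077 CPM over the 20 libraries. Among maternally expressed genes the order was led by Ube3a, a ubiquitin ligase (347 CPM), H13, a signal peptide peptidase (207 CPM), and Ppp1r9a, an actin-binding phosphatase regulator (58.6 CPM). Copg2 (57.6), Grb10 (56.6), Trappc9 (46.6), H19 (33.2), Asb4 (26.0), Cdkn1c (17.3) and Meg3 (15.7) followed, all in mean CPM. Kcnq1, Tfpi2, Rian and Mirg lay between 1.33 and 6.53 CPM. The levels of Ppp1r9a, Copg2 and Grb10 differed by less than their spread between libraries.

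Among paternally expressed genes, Nap1l5, a nucleosome assembly protein family member, stood first (332 CPM), followed by Nnat, or neuronatin, a small membrane proteolipid (107 CPM), and Peg10, a gene derived from a retrotransposon (53.0 CPM). Sgce, Peg13, Ndn and Plagl1 were nearly level, from 46.3 to 47.1 CPM. Zrsr1 (41.6), Impact (25.3), Peg3 (22.1), Kcnq1ot1 (19.96), Snrpn (15.4) and Mest (13.7) came next in mean CPM, and Dlk1, Airn and Peg12 lay between 3.41 and 8.20 CPM. A mean above 10 CPM was reached by 10 of 18 maternally and 13 of 19 paternally expressed genes.

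Among the listed genes, 7 had too few reads for any test. Over all 20 libraries, Usp29 had 112 counts, Phlda2 57, Zim1 44, Slc22a18 43, Rasgrf1 10, Calcr 2 and Magel2 1. Of the other 31 genes, 29 were tested in all 6 comparisons, while Mirg was tested in 3 and Tfpi2 in 5. A floor of 3 counts was used, a limit that covers counting error only, so a low count does not show that a gene is silent in all cells of the ovary.

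**Figure D1:**
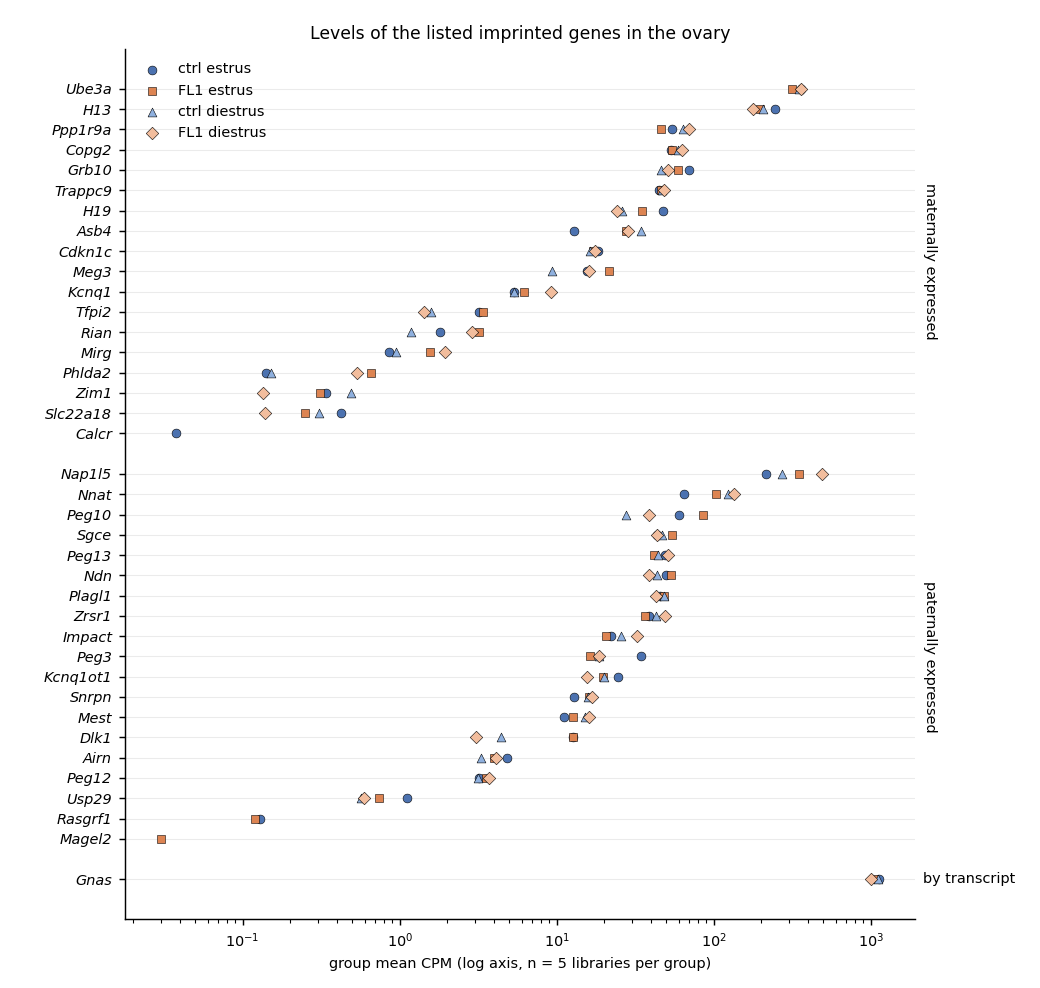
Mean CPM of each listed gene in the 4 groups (log axis, 5 libraries per group), with maternally expressed genes above, paternally expressed genes in the middle and Gnas at the bottom, each ordered by the mean over the 20 libraries. Group means of 0 cannot be drawn on this axis and are left out. Of the 31 genes with enough reads for a test, the highest and the lowest group mean lie over 2-fold apart in 10 (Dlk1, Peg10, Asb4, Rian, Tfpi2, Meg3, Mirg, Nap1l5, Peg3 and Nnat) and closer in 21.

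Summed over each class, the maternally expressed genes came to 936 ± 49.5 CPM (SD, n = 5) in ctrl estrus, 836 ± 37.6 in FL1 estrus, 871 ± 30.8 in ctrl diestrus and 876 ± 23.8 in FL1 diestrus. Much of the difference between the lines in estrus lay in Ube3a and H13. Ube3a had means of 361 CPM in ctrl estrus and 315 in FL1 estrus, and H13 had means of 246 and 198. H13 stood at 327 CPM in ctrl estrus replicate 5. The paternally expressed genes came to 695 ± 110.2 CPM in ctrl estrus, 879 ± 123 in FL1 estrus, 757 ± 54.7 in ctrl diestrus and 1001 ± 125 in FL1 diestrus. Much of the spread in the second class lay in Nap1l5. Without it the paternal sums were 479 ± 45.8, 530.3 ± 56.5, 484 ± 33.4 and 511 ± 31.5 CPM in the same order. No test was made on these sums, since the genes were chosen with results known.

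The first question was which imprinted genes differed between the high-fertility line and the control line in the same stage. In estrus, 2 of 30 tested genes differed between the lines by edgeR's quasi-likelihood test (adjusted p of at most 0.05), with Peg3 weaker and Asb4 stronger expressed in FL1. That is 1 of 16 paternally and 1 of 13 maternally expressed genes, and 6.67% of the tested set, where 2.33% of all genes tested in estrus were called. In diestrus, only Nap1l5 of 29 tested genes differed, stronger in FL1, or 3.45% of the set against 4.11% of all genes. Over both stages together, 3 of 31 differed, 9.68% of the set against 6.74% of all genes, with Nap1l5 and Peg10 stronger and H13 weaker expressed in FL1. This pooled comparison uses the same libraries as the per-stage ones and is not independent of them. Median log2 fold changes (log2FC, FL1 over ctrl) of the tested set were 0.03 in estrus, 0.09 in diestrus and 0.04 over both stages, and the medians of all genes lay between -0.01 and 0.00.

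Peg3, which encodes a large zinc finger protein and is a classic paternally expressed regulator of growth and maternal behaviour, stood at 24.4, 36.0, 35.7, 43.2 and 33.3 CPM in the 5 ctrl estrus libraries and at 12.1, 18.5, 17.5, 16.9 and 17.1 CPM in the 5 FL1 estrus libraries. In diestrus it stood at 18.0, 13.6, 28.6, 16.8 and 16.8 CPM in ctrl and at 26.0, 14.7, 18.0, 20.1 and 14.5 CPM in FL1. Ctrl estrus was the high group, and each of its libraries lay above every FL1 estrus library, while the lines overlapped in diestrus. The log2FC in estrus was -1.07 ± 0.17 (SE, adjusted p = 0.00275), and the call held without ctrl estrus replicate 5 (log2FC -1.08, adjusted p = 0.00261) and without any other library. In diestrus the log2FC was -0.01 ± 0.21 (SE, adjusted p = 0.994). Over both stages DESeq2 called Peg3 and edgeR did not. The study itself lists Peg3, and Asb4 below, as genes that differ in these samples, so neither is independent evidence.

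Asb4, a maternally expressed subunit of a ubiquitin ligase complex that lies downstream of Peg10 and Ppp1r9a on chromosome 6, showed the opposite direction. It stood at 14.0, 17.4, 15.6, 11.5 and 5.81 CPM in ctrl estrus and at 42.0, 23.2, 23.2, 28.0 and 22.4 CPM in FL1 estrus. In diestrus it stood at 44.5, 34.0, 25.1, 40.9 and 28.8 CPM in ctrl and at 41.9, 30.7, 25.1, 18.2 and 27.5 CPM in FL1. Here ctrl estrus was the low group, below all libraries of the other 3 groups. In estrus the lines did not overlap, with a log2FC of 1.10 ± 0.26 (SE, adjusted p = 0.0412). Without ctrl estrus replicate 5, the lowest library, the log2FC was 0.93, adjusted p = 0.0237. The call rested on several other libraries, because leaving out ctrl estrus replicate 1, 3 or 4 or any 1 of the 5 FL1 estrus libraries gave an adjusted p between 0.0528 and 0.109. In diestrus the lines overlapped, with a log2FC of -0.28 ± 0.20 (SE, adjusted p = 0.533).

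**Figure D2:**
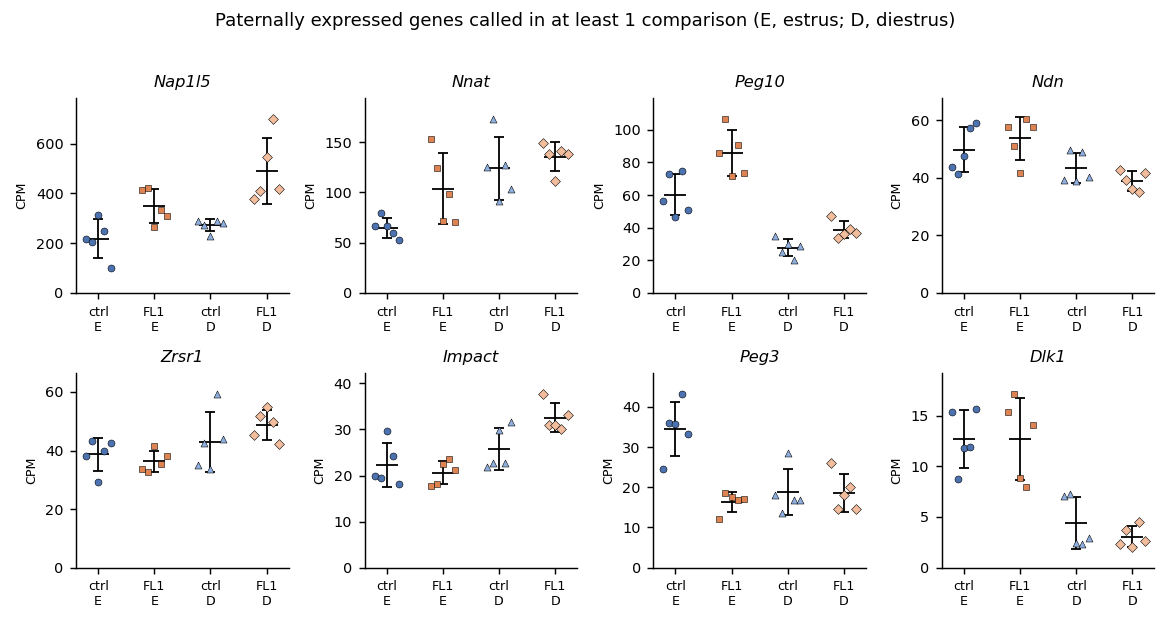
CPM per library of the 8 paternally expressed genes called in at least 1 comparison, in estrus (E) and diestrus (D), with the group mean as a wide tick and the SD as bars (n = 5), each axis starting at 0. Peg3 is high in ctrl estrus alone, Dlk1 and Peg10 are high in estrus of both lines, and Nap1l5 is highest in FL1 diestrus.

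Nap1l5 was the most abundant of the paternally expressed genes and had the widest line difference among them in diestrus. In diestrus it stood at 290.0, 271, 229, 289 and 283 CPM in ctrl and at 376, 410.5, 547, 698 and 416 CPM in FL1. All FL1 libraries lay above all ctrl libraries, and FL1 was also the more variable group. The log2FC was 0.84 ± 0.15 (SE, adjusted p = 0.0059). In estrus it stood at 215, 206, 314, 249 and 98.7 CPM in ctrl and at 412, 422, 265.4, 334 and 310.4 CPM in FL1, where FL1 replicates 3 and 5 fell within the ctrl range. The log2FC in estrus was 0.69 ± 0.23 (SE, adjusted p = 0.161), which did not pass. Over both stages it was 0.77 ± 0.15 (SE, adjusted p = 0.00172), and 0.69, adjusted p = 0.000613 without ctrl estrus replicate 5, whose 98.7 CPM was the lowest of the 20 values.

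Peg10 (chr6:4747306-4760517, GRCm38, as for the positions below), a gene needed for the placenta in early development, stood at 56.5, 72.6, 46.8, 74.4 and 50.6 CPM in ctrl estrus and at 86.0, 107, 71.4, 90.5 and 73.5 CPM in FL1 estrus. It stood at 34.7, 25.1, 29.9, 20.4 and 28.7 CPM in ctrl diestrus and at 47.3, 33.8, 36.1, 39.3 and 36.6 CPM in FL1 diestrus. FL1 was the higher line in either stage with a small overlap. Neither stage alone passed (log2FC 0.50 ± 0.15 (SE, adjusted p = 0.107) in estrus and 0.47 ± 0.14 (SE, adjusted p = 0.0861) in diestrus), while over both stages the log2FC was 0.49 ± 0.11 (SE, adjusted p = 0.00476) and the call held without any single library.

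H13 (chr2:152669461-152708670), which cuts signal peptides remaining in the membrane, was lower in FL1 by a small margin. It stood at 211, 230.0, 239.5, 219.9 and 327 CPM in ctrl estrus and at 205, 191, 205, 182 and 205 CPM in FL1 estrus, 2 groups that did not overlap although the test in estrus did not pass (log2FC -0.31 ± 0.12 (SE, adjusted p = 0.214), and -0.18, adjusted p = 0.274 without ctrl estrus replicate 5). In diestrus it stood at 196, 226, 225, 186 and 204 CPM in ctrl and at 164, 183, 189, 166 and 191 CPM in FL1, with some overlap and a log2FC of -0.22 ± 0.08 (SE, adjusted p = 0.182). Over both stages the log2FC was -0.26 ± 0.07 (SE, adjusted p = 0.0275). Ctrl estrus replicate 5 was the highest library of all, and without it the log2FC over both stages was -0.20, adjusted p = 0.0295. The adjusted p rose to between 0.0506 and 0.0556 without FL1 estrus replicate 2 or 4, ctrl diestrus replicate 2 or 3, or FL1 diestrus replicate 1 or 4.

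Groups without overlap, all 5 libraries of one line on the same side of the other, were found in 3 of 30 genes in estrus (Peg3, Asb4 and H13), where 4.88% of all genes showed this, and in 2 of 29 in diestrus (Nap1l5 and Rian), where 5.45% did. By DESeq2, which called 3.97% of all genes in estrus, 5.33% in diestrus and 6.76% over both stages, further genes passed. Nnat was called in estrus by DESeq2 alone (adjusted p = 0.0359, log2FC 0.67 in edgeR with an adjusted p of 0.107). It stood at 66.3, 79.6, 66.4, 59.8 and 52.1 CPM in ctrl estrus and at 153, 124, 71.6, 98.4 and 70.3 CPM in FL1 estrus, with 2 FL1 libraries inside the ctrl range.

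The long noncoding RNAs of the Dlk1-Meg3 locus on chromosome 12, Meg3, Rian and Mirg, are maternally expressed and share 1 direction of transcription, with Meg3 at chr12:109541001-109571726 nearest to Dlk1, and each had a higher group mean in FL1 than in ctrl in either stage. Meg3 stood at 18.8, 10.9, 25.2, 18.0 and 5.11 CPM in ctrl estrus and at 29.0, 23.2, 17.6, 22.6 and 16.0 CPM in FL1 estrus. It stood at 9.93, 13.6, 6.32, 10.2 and 6.62 CPM in ctrl diestrus and at 17.2, 20.8, 11.7, 14.5 and 15.9 CPM in FL1 diestrus. The lines overlapped in both stages, more so in estrus, where ctrl replicate 5 was the lowest of the 20 libraries. In diestrus the log2FC was 0.77 ± 0.23 (SE, adjusted p = 0.0735), which DESeq2 called (adjusted p = 0.0261), as it did over both stages (adjusted p = 0.0436, against 0.61 ± 0.21 (SE, adjusted p = 0.0788) in edgeR).

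Rian was near the floor in some libraries, with 1 to 24 counts per library in ctrl and 17 to 35 in FL1. It stood at 2.27, 0.411, 0.752, 0.165 and 2.31 CPM in ctrl diestrus and at 2.87, 3.01, 3.31, 2.41 and 2.84 CPM in FL1 diestrus, 2 groups without overlap, with a log2FC of 1.22 ± 0.50 (SE, adjusted p = 0.213). Over both stages the log2FC was 1.00 ± 0.36 (SE, adjusted p = 0.0986) for Rian and 0.92 ± 0.41 (SE, adjusted p = 0.206) for Mirg, which had 2 to 28 counts per library. None of the 3 genes passed by edgeR. Dlk1, the paternally expressed protein-coding gene of the locus, had a log2FC between the lines of -0.01 ± 0.24 (SE, adjusted p = 0.994) in estrus, 0.08, adjusted p = 0.911 without ctrl estrus replicate 5, and -0.55 ± 0.40 (SE, adjusted p = 0.527) in diestrus.

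**Figure D3:**
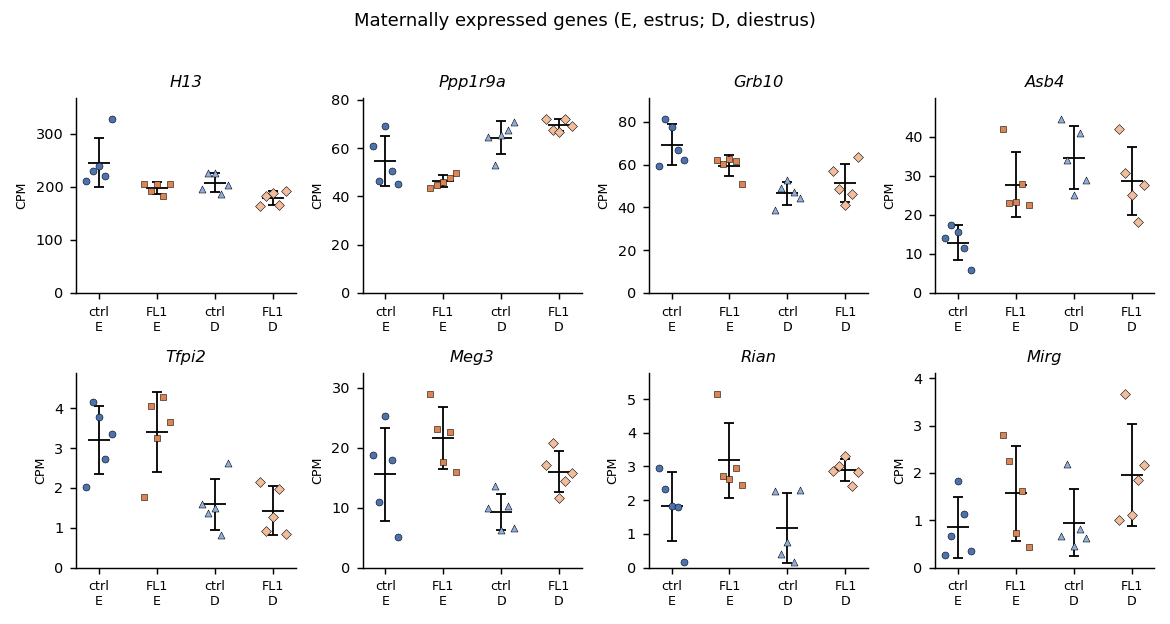
CPM per library of the 5 maternally expressed genes called in at least 1 comparison and of Meg3, Rian and Mirg, in estrus (E) and diestrus (D), with the group mean as a wide tick and the SD as bars (n = 5), each axis starting at 0. Asb4 is low in ctrl estrus alone, Tfpi2 and Grb10 have their higher means in estrus, and Meg3, Rian and Mirg have higher means in FL1.

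The second question was which imprinted genes changed between estrus, when ovulation has just taken place, and diestrus, when corpora lutea are active. Over the comparisons, 12 genes were called between the stages in at least 1 line and 5 between the lines. Of all genes, 2.85% in ctrl and 15.9% in FL1 were called between the stages. Between the lines the shares were 2.33% in estrus, 4.11% in diestrus and 6.74% over both stages. In ctrl, 6 of 30 tested genes were called (20%), where 2.85% of all genes were, with Dlk1, Peg3, Peg10 and Grb10 higher and Nnat and Asb4 lower in estrus. In FL1, 8 of 31 were called (25.8%), where 15.9% of all genes were, with Dlk1, Peg10, Ndn and Tfpi2 higher and Zrsr1, Impact, Nap1l5 and Ppp1r9a lower in estrus. By class these were 4 of 16 paternally and 2 of 13 maternally expressed genes in ctrl, and 6 of 16 and 2 of 14 in FL1. Groups did not overlap in 5 genes of the set in ctrl, against 4.51% of all genes, and in 5 genes in FL1, against 12.2% of all genes. Median log2FC (estrus over diestrus) of the set was 0.04 in ctrl and -0.05 in FL1, against -0.01 and 0.01 for all genes.

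Cell-type markers moved with the stage as well. Of 5 stroma markers, 2 were higher in estrus in ctrl and 4 in FL1, with sums of 2363 to 3983 CPM in ctrl estrus against 1509 to 2071 in ctrl diestrus, and of 2097 to 3848 CPM in FL1 estrus against 1363 to 1902 in FL1 diestrus. Of 4 luteal markers, 3 were lower in estrus in FL1, with sums of 9928 to 27069 CPM in ctrl estrus, 19819 to 37048 in ctrl diestrus, 12442 to 25722 in FL1 estrus and 21319 to 29589 in FL1 diestrus. Of 3 theca markers, 2 were tested, and Cyp17a1, an enzyme of androgen synthesis, was lower in estrus in both lines, with theca sums of 53.9 to 135 CPM in ctrl estrus against 220.3 to 1037 in ctrl diestrus, and of 62.7 to 90.4 CPM in FL1 estrus against 216 to 365 in FL1 diestrus. The theca marker Insl3 had 0 counts in every FL1 library and at most 3 in any ctrl library. All 3 endothelial and all 3 blood markers were lower in estrus in FL1, as was Cyp19a1, 1 of 4 tested granulosa markers. Bmp15, 1 of 5 oocyte markers, and Upk3b and Upk1b, of 4 surface epithelium markers, were higher. In ctrl, Cd68, 1 of 3 macrophage markers, was higher in estrus. Their part in the stage differences of the imprinted genes was not tested. Between the lines in estrus, the only marker called was Upk3b, 1 of 4 of the surface epithelium, higher in FL1. In diestrus, Upk1b of the same 4 was lower in FL1 and Cd68, 1 of 3 macrophage markers, was higher. Over both stages, the macrophage markers Cd68 and Csf1r were called, 1 higher and 1 lower in FL1.

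Dlk1 and Peg10, both paternally expressed, were called in either line. Dlk1, a membrane protein related to the Notch ligands and known from stromal and progenitor cells, stood at 15.3, 8.79, 11.8, 11.9 and 15.7 CPM in ctrl estrus and at 7.09, 7.27, 2.41, 2.31 and 2.93 CPM in ctrl diestrus. In FL1 it stood at 15.3, 17.1, 8.82, 7.99 and 14.0 CPM in estrus and at 2.30, 3.67, 2.05, 4.54 and 2.67 CPM in diestrus. Estrus was the high stage in either line and the stages did not overlap. The log2FC was 2.04 ± 0.28 (SE, adjusted p = 0.000128) in FL1, the widest stage difference in the set, and 1.49 ± 0.34 (SE, adjusted p = 0.0357) in ctrl. In ctrl the call was lost without ctrl estrus replicate 5 (log2FC 1.41, adjusted p = 0.0504) and without ctrl estrus replicate 1, 3 or 4 or ctrl diestrus replicate 3, 4 or 5 (adjusted p 0.0620 to 0.0866).

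Peg10 had a log2FC of 1.11 ± 0.17 (SE, adjusted p = 0.00417) in ctrl, 1.16, adjusted p = 0.00386 without ctrl estrus replicate 5, and of 1.14 ± 0.12 (SE, adjusted p = 1.07e-05) in FL1. Its estrus libraries lay above all diestrus libraries of the same line, as the values given above show. Both calls held without any single library. The log2FC of the line-by-stage interaction, the amount by which the stage difference in FL1 exceeded that in ctrl, was 0.03 ± 0.22 (SE, adjusted p = 0.971) for Peg10 and 0.55 ± 0.46 (SE, adjusted p = 0.681) for Dlk1.

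In ctrl alone, 4 further genes were called. Peg3 was higher in estrus, with a log2FC of 0.88 ± 0.20 (SE, adjusted p = 0.0357) and 0.89, adjusted p = 0.038 without ctrl estrus replicate 5, although ctrl diestrus replicate 3 lay within the estrus range. That call was lost without ctrl estrus replicate 2, 3 or 4 or ctrl diestrus replicate 1, 2, 4 or 5 (adjusted p 0.0631 to 0.0993). In FL1 the log2FC of Peg3 was -0.19 ± 0.18 (SE, adjusted p = 0.523). Asb4 was lower in estrus without overlap, with a log2FC of -1.43 ± 0.25 (SE, adjusted p = 0.00898) in ctrl, -1.26, adjusted p = 0.00454 without ctrl estrus replicate 5, and of -0.05 ± 0.21 (SE, adjusted p = 0.893) in FL1.

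Nnat stood at 125, 173, 91.4, 127 and 103 CPM in ctrl diestrus, above every ctrl estrus library given above, with a log2FC of -0.94 ± 0.17 (SE, adjusted p = 0.00915) and -0.87, adjusted p = 0.0138 without ctrl estrus replicate 5. In FL1 diestrus it stood at 149, 138, 111, 141 and 139 CPM, and the log2FC in FL1 was -0.39 ± 0.18 (SE, adjusted p = 0.144). Grb10 (chr11:11930508-12038683), a maternally expressed adaptor that restrains insulin and growth factor signalling, stood at 59.2, 81.3, 77.4, 66.7 and 62.2 CPM in ctrl estrus and at 38.8, 49.2, 53.0, 47.0 and 44.4 CPM in ctrl diestrus. The stages did not overlap, and the log2FC was 0.58 ± 0.12 (SE, adjusted p = 0.023), and 0.61, adjusted p = 0.0171 without ctrl estrus replicate 5. The adjusted p rose to between 0.0535 and 0.0628 without ctrl estrus replicate 2, 3 or 4 or ctrl diestrus replicate 4. In FL1 the log2FC of Grb10 was 0.21 ± 0.12 (SE, adjusted p = 0.235).

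In FL1 alone, 6 further genes were called. Ppp1r9a (chr6:4902917-5165661) had very even values, 43.6, 44.8, 45.8, 47.8 and 49.7 CPM in FL1 estrus and 72.02, 67.6, 66.7, 71.9 and 69.3 CPM in FL1 diestrus. The 2 stages were far apart against this spread, with a log2FC of -0.59 ± 0.08 (SE, adjusted p = 0.000116). In ctrl it stood at 61.0, 46.3, 69.3, 50.6 and 45.3 CPM in estrus and at 64.4, 52.8, 65.5, 67.6 and 70.9 CPM in diestrus, with overlap and a log2FC of -0.24 ± 0.13 (SE, adjusted p = 0.444).

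Impact, a paternally expressed inhibitor of the GCN2 kinase, which senses amino acid shortage, stood at 17.8, 18.2, 22.5, 23.5 and 21.1 CPM in FL1 estrus and at 37.7, 31.1, 31.1, 30.1 and 33.0 CPM in FL1 diestrus. The stages did not overlap, and the log2FC was -0.66 ± 0.12 (SE, adjusted p = 0.00134). In ctrl the log2FC was -0.21 ± 0.17 (SE, adjusted p = 0.64). Zrsr1 (chr11:22972005-22976496), a paternally expressed splicing factor related to U2AF, stood at 33.7, 32.8, 41.5, 35.4 and 38.1 CPM in FL1 estrus and at 45.2, 51.6, 54.9, 49.6 and 42.1 CPM in FL1 diestrus. These stages also lay apart, with a log2FC of -0.42 ± 0.10 (SE, adjusted p = 0.0109), against -0.15 ± 0.17 (SE, adjusted p = 0.747) in ctrl. Zrsr1 shares exon sequence with Commd1 on the opposite strand, and since the strand setting of the counting is not given in the sources used here, reads of the pair cannot be told apart.

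Ndn (chr7:62346569-62350262), or necdin, a paternally expressed protein of the MAGE family that restrains cell growth, stood at 57.7, 51.1, 41.8, 60.4 and 57.5 CPM in FL1 estrus and at 42.6, 39.1, 36.1, 34.9 and 41.6 CPM in FL1 diestrus. The ranges met only in FL1 estrus replicate 3, and the log2FC was 0.46 ± 0.11 (SE, adjusted p = 0.01). Tfpi2 (chr6:3962595-3988919), a maternally expressed inhibitor of serine proteases, had 5 to 34 counts per library. It stood at 1.77, 4.06, 3.26, 4.29 and 3.64 CPM in FL1 estrus and at 2.15, 0.917, 1.26, 1.99 and 0.835 CPM in FL1 diestrus. FL1 estrus replicate 1 lay among the diestrus values. The log2FC was 1.23 ± 0.38 (SE, adjusted p = 0.0354) in FL1 and 1.00 ± 0.36 (SE, adjusted p = 0.182) in ctrl, and the FL1 call was lost without FL1 estrus replicate 2, 4 or 5 or FL1 diestrus replicate 2, 3 or 5 (adjusted p 0.0687 to 0.0877). Nap1l5 was lower in estrus in FL1 with a log2FC of -0.49 ± 0.16 (SE, adjusted p = 0.0497), and the stages overlapped. Its call was lost without FL1 estrus replicate 3, 4 or 5 or FL1 diestrus replicate 3 or 4 (adjusted p 0.0951 to 0.146).

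**Figure D4:**
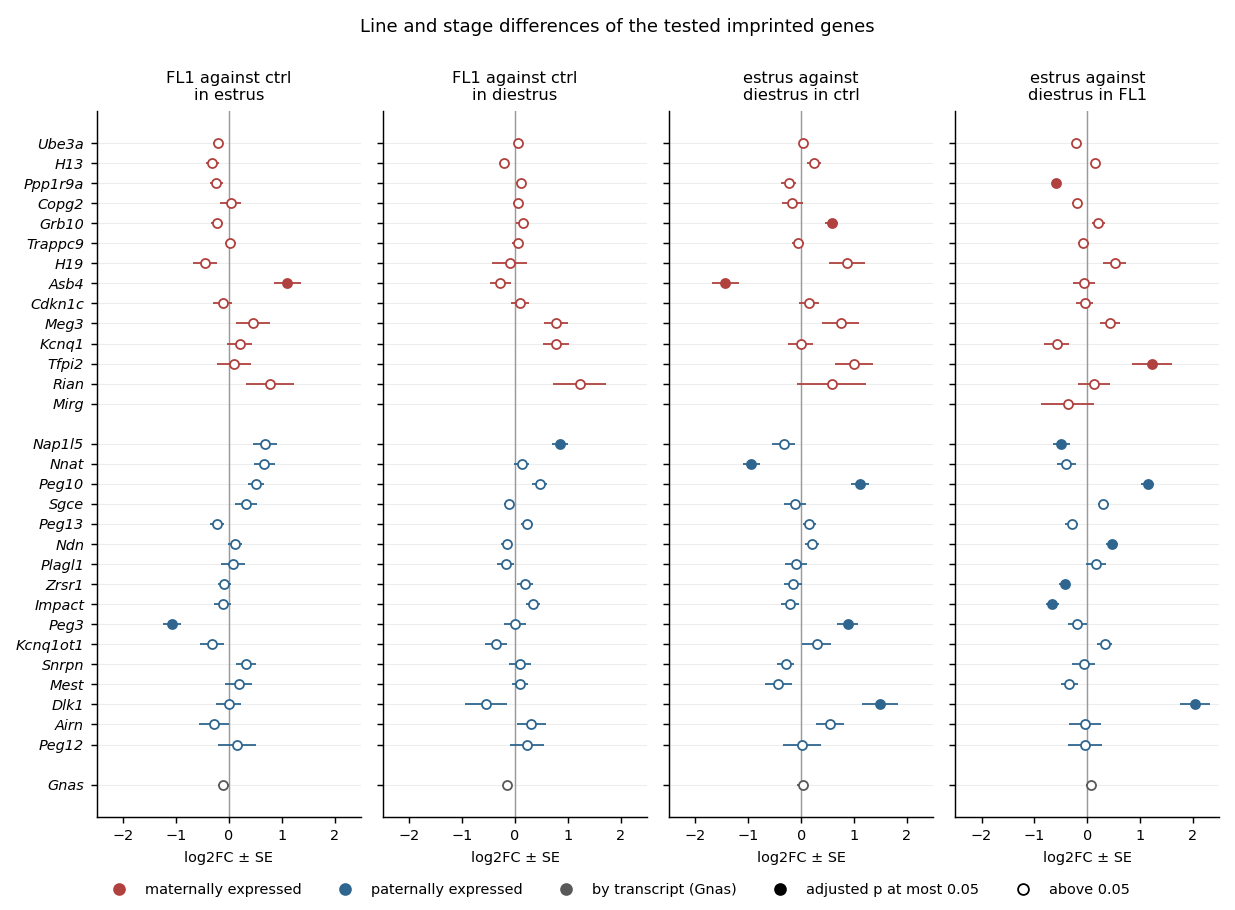
Log2FC with its standard error for the 31 tested genes in 4 comparisons, from edgeR fits on all genes, with maternally expressed genes in red, paternally expressed genes in blue and Gnas in grey. Filled symbols mark an adjusted p of at most 0.05, a gene not tested in a comparison has no symbol there, and a value right of 0 is higher in FL1 (left panels) or in estrus (right panels). Most symbols are open and near 0, and the filled ones are 2, 1, 6 and 8 in the 4 panels from left to right.

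A call in one line and not in the other does not show that the stage difference depends on the line, and the interaction was tested for this. By edgeR, 0 of 31 genes passed, where 0.0565% of all genes did. At an unadjusted p under 0.05 there were 7 genes, limma-voom called 0 and DESeq2, which called 0.953% of all genes, called 2, which were Asb4 and Peg3. For Asb4 the interaction log2FC was 1.38 ± 0.35 (SE, adjusted p = 0.123), and DESeq2 gave an adjusted p of 0.0269. For Peg3 it was -1.07 ± 0.28 (SE, adjusted p = 0.125), and DESeq2 gave an adjusted p of 0.0388. In both genes the ctrl estrus mean lay outside those of the other groups, high in Peg3 and low in Asb4, while the means of the other 3 groups lay within 16.4 to 18.8 CPM in Peg3 and 27.7 to 34.7 CPM in Asb4. The other 5 genes with an unadjusted p under 0.05, which were Grb10, Ube3a, Impact, Peg13 and Ppp1r9a, had interaction log2FC between -0.46 and -0.25.

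Genes of a shared locus were compared next, because neighbouring imprinted genes answer to a common control region. Within-group deviations of log2 CPM were correlated over the 20 libraries for the 27 pairs of neighbours that passed the expression filter, with permutation of libraries within their groups and Benjamini-Hochberg adjustment over the 27 pairs. The median Pearson r was 0.12, and 18 of 27 were positive (66.7%). Among the 438 pairs of listed genes from different loci, a comparison added after the values were seen, the median r was -0.02 and 209 were positive (47.7%), and 7 had an r at least as high as that of Meg3 and Mirg below. Without ctrl estrus replicate 5, with deviations from the same group means, 14 of 27 neighbouring pairs (51.9%) and 222 of 438 other pairs (50.7%) were positive. Pairs of either kind share the same libraries, and no test was made between the kinds. The pair Sgce and Asb4 had r = 0.76 (permutation test, p = 0.001, adjusted p = 0.0259) and Spearman's rho = 0.71 (p = 0.00077, adjusted p = 0.0208). Without the 2 libraries farthest from the median of Sgce r was 0.62, without ctrl estrus replicate 5 it was 0.61, and within the lines it was 0.86 in ctrl and 0.61 in FL1. Sgce is listed as paternally and Asb4 as maternally expressed, and the parental copy in use was not measured.

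The pair Meg3 and Mirg, both maternally expressed from the same stretch of chromosome 12, had r = 0.67 (permutation test, p = 0.00192, adjusted p = 0.0259) and rho = 0.61 (p = 0.00827, adjusted p = 0.112). Without the 2 farthest libraries r was 0.65, without ctrl estrus replicate 5 it was 0.71, and it was 0.66 in ctrl and 0.84 in FL1. The paternally expressed genes Peg10 and Sgce, whose starts lie 99 bases apart, had r = 0.12 (permutation test, p = 0.823), and Dlk1 and Meg3 had r = 0.24 (permutation test, p = 0.289).

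**Figure D5:**
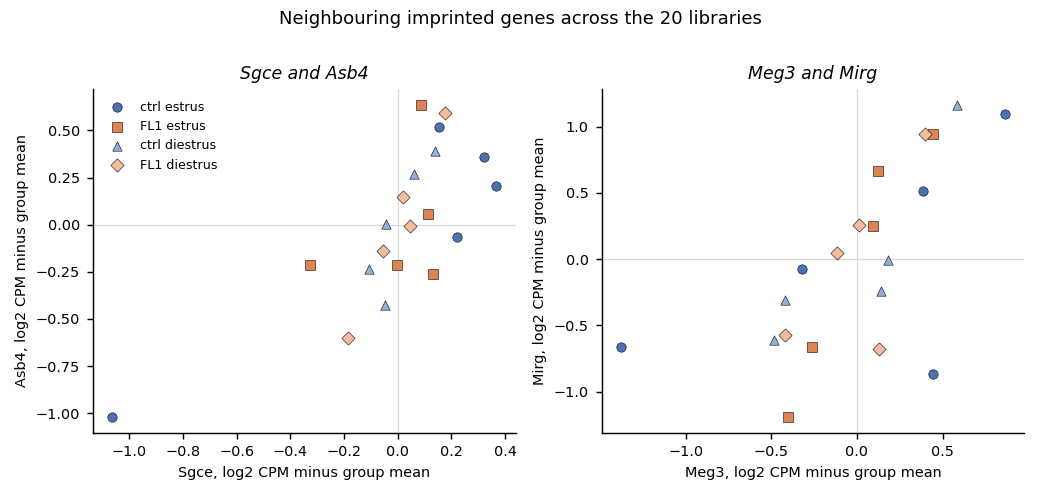
Log2 CPM minus the mean of its group for Sgce against Asb4 (left) and Meg3 against Mirg (right), 1 symbol per library (n = 20) with shape and colour by group. Libraries high in the first gene tend to be high in the second, with r = 0.76 and 0.67, and ctrl estrus replicate 5 is the lowest point on the left.

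Of the loci that held a called gene, some members were not called themselves. Sgce, or epsilon-sarcoglycan, stood at 52.8, 45.4, 51.1, 47.6 and 19.4 CPM in ctrl estrus, where replicate 5 was far below the rest, and had a log2FC between stages in FL1 of 0.31 ± 0.11 (SE, adjusted p = 0.0627). In the Snrpn-Ube3a locus on chromosome 7, which holds Ndn, Ube3a had a log2FC between the lines of -0.20 ± 0.09 (SE, adjusted p = 0.298) in estrus and 0.05 ± 0.08 (SE, adjusted p = 0.8) in diestrus. It stood at 381, 357, 351, 358 and 361 CPM in ctrl estrus and at 285, 329, 360.1, 306 and 293 CPM in FL1 estrus, with overlap. Snrpn, a paternally expressed spliceosome protein gene, and Peg12 had log2FC between -0.30 and 0.32 in the 4 comparisons of line and stage. Gnas had log2FC between -0.15 and 0.06 in these comparisons. None of these genes passed in any of the 6 comparisons by edgeR or DESeq2. The 10 tested genes not described so far, the maternally expressed Copg2, Trappc9, H19, Cdkn1c and Kcnq1 and the paternally expressed Peg13, Plagl1, Kcnq1ot1, Mest and Airn, were not called by edgeR or DESeq2 either, with log2FC between -0.58 and 0.87. For Kcnq1 over both stages limma-voom gave an adjusted p of 0.0478, and edgeR gave 0.0399 without ctrl estrus replicate 5, against 0.0778 with all 20 libraries. The widest log2FC among the 10 genes, between the stages in ctrl, was that of H19, the noncoding RNA gene beside Igf2 (log2FC 0.87 ± 0.33 (SE, adjusted p = 0.214)). The pairs Copg2 and Mest, Kcnq1 and Kcnq1ot1, and Ube3a and Snhg14 share exon sequence on opposite strands, so that reads there cannot be assigned with certainty.

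A second list of 29 genes listed as imprinted, outside the set, was looked at beside it. Whether they use 1 parental copy in the ovary was not measured. Of the 19 to 21 tested per comparison, edgeR called 0 between the lines in estrus (3 at an unadjusted p under 0.05, 0 by DESeq2) and 0 in diestrus (2 and 1). Over both stages it called 1 of 21, Inpp5f (log2FC 0.34 ± 0.10 (SE), adjusted p = 0.0459), where 6.74% of all genes were called. Between the stages in ctrl it called 0 (2 and 1). Without ctrl estrus replicate 5, edgeR called Pon3 between the stages in ctrl (log2FC 0.67, adjusted p = 0.0489, against 0.0849 with it). In FL1, 4 of 20 were called between the stages, where 15.9% of all genes were called in either direction. All 4 were higher in estrus, where 7.42% of all genes were, namely Commd1 (log2FC 0.63 ± 0.12, adjusted p = 0.00212), Dcn (0.55 ± 0.11, adjusted p = 0.00247), Gatm (0.72 ± 0.20, adjusted p = 0.0251) and Slc38a4 (0.84 ± 0.24, adjusted p = 0.0261). For the line-by-stage interaction it called 0 of 21 (2 at an unadjusted p under 0.05, 0 by DESeq2), so these stage differences were not shown to differ between the lines. Dcn encodes decorin, a matrix proteoglycan of stroma, and Gatm an enzyme of creatine synthesis. With 1 library left out at a time, the calls of Commd1 and Dcn held in 10 of 10 fits, that of Gatm in 6 of 10, that of Slc38a4 in 4 of 10 and that of Inpp5f in 6 of 20. Commd1, the gene that surrounds Zrsr1, was higher in FL1 estrus while Zrsr1 was lower. For Igf2, the paternally expressed growth factor gene beside H19, the tables list 0 counts in every library, as they do for the 2 genes that overlap it on the same strand. How reads shared by overlapping genes were counted is not given in the sources used here. These 0 counts therefore do not show that Igf2 is silent.

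Among 22 genes that set, read or keep imprints (DNA methyltransferases, TET enzymes, ZFP57 and its partners), all were tested. Between the lines edgeR called 0 in estrus (3 at an unadjusted p under 0.05, 0 by DESeq2). In diestrus it called 1 of 22, where 4.11% of all genes were called. This was Dnmt3a, a methyltransferase that sets imprints in oocytes, higher in FL1 (log2FC 0.38 ± 0.09 (SE), adjusted p = 0.0252). Between the stages in ctrl edgeR called 0 (1 at an unadjusted p under 0.05, 0 by DESeq2). In FL1, 4 of 22 were called between the stages, where 15.9% of all genes were called in either direction. All 4 were lower in estrus, where 8.49% of all genes were, namely Tet3 (log2FC -0.53 ± 0.12, adjusted p = 0.00472), Smchd1 (-0.41 ± 0.11, adjusted p = 0.0193), Dnmt3a (-0.36 ± 0.10, adjusted p = 0.0249) and Tet1 (-0.46 ± 0.15, adjusted p = 0.0429). With 1 library left out at a time, the stage calls held in 10 of 10 fits for Tet3, 8 for Smchd1, 5 for Dnmt3a and 2 for Tet1, and the line call of Dnmt3a held in 5 of 10. For the line-by-stage interaction edgeR called 0 of 22 (6 at an unadjusted p under 0.05, 2 by DESeq2). Dnmt3a had a log2FC between the stages of 0.34 in ctrl (adjusted p = 0.115), opposite in sign to FL1, and its interaction had an adjusted p of 0.0754 by edgeR, 0.00565 by DESeq2 and 0.0348 by limma-voom. Without ctrl estrus replicate 5, edgeR called both. The log2FC was then 0.40 (adjusted p = 0.0297) between the stages in ctrl and -0.77 (adjusted p = 0.0302) for the interaction. For Smchd1 the interaction had an adjusted p of 0.123 by edgeR and 0.0403 by DESeq2. Tet1 and Tet3 oxidise methylated cytosine, and Smchd1 helps to silence imprinted clusters and the inactive X chromosome.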

How the data were processed

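The authors prepared 1 library per animal with the QuantSeq 3′ kit (forward version), aligned trimmed reads with STAR to GRCm38 and deposited raw counts per Ensembl gene, without normalization or pooling. The counting tool and its strand setting are not given in the sources used here, and no molecular identifiers are named. Groups came from the sample labels; the source name, which reads FL1 for all libraries, was not used. Positions came from GENCODE M21 (GRCm38), which held 54723 of 54838 genes and all 38 imprinted ones.

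Tests were edgeR 4.0.16 quasi-likelihood fits in R 4.3.3 on all genes (TMM, filterByExpr with a minimum count of 10, Benjamini-Hochberg adjustment over all genes tested), over the 10 libraries of each stage or line, or all 20 with stage as a covariate or in interaction. The SE is the absolute log2FC over the square root of F. CPM use TMM factors over all 20 libraries, and correlations use log2 CPM with a prior count of 2. Nothing says that animals within a group were from separate litters, so p-values measure the spread between these animals. The fits within a stage or a line were tested on simulated data. Alternatives were DESeq2 1.42.0, limma-voom (limma 3.58.1) with sample weights, RLE size factors, other filters, a joint fit, a block by replicate number, and each library left out.

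The imprinted genes, the other lists and the rules were chosen with earlier results of these data known. Genes were named if called in a comparison, if they share a locus with such a gene, if among the 3 most abundant of a class, if called by DESeq2 alone, if their groups did not overlap, or if listed by the study (Peg3, Asb4), and all members with too few counts were named.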

Additional observations from a re-analysis of the deposited data

Results flagged for a closer look

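In 10 of 124 groups of 5 libraries, 1 library lay far from the other 4 by Dixon's criterion, where chance gives about 6.2. Of these, 3 were in FL1 estrus replicate 1, where Rian was at 5.15 CPM (the others at 2.46 to 2.96), Asb4 at 42.0 (22.4 to 28.0) and Peg3 at 12.1 (16.9 to 18.5). Another 2 were in ctrl estrus replicate 5, with Sgce at 19.4 CPM (45.4 to 52.8) and H13 at 327 (211 to 240). Copg2 was at 26.4 CPM in ctrl estrus replicate 4 (56.0 to 64.3) and at 72.9 in FL1 diestrus replicate 4 (57.7 to 62.0). Single libraries stood out for Mirg, at 2.19 CPM in ctrl diestrus replicate 2 (0.451 to 0.824), for Nnat, at 110.9 in FL1 diestrus replicate 3 (138 to 149), and for Grb10, at 50.8 in FL1 estrus replicate 5 (60.3 to 62.5). Copg2 and Mest overlap at their 3′ ends on opposite strands. Depth and the reasons for these values were not tested.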

How the results depend on the processing

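For imprinted genes called by edgeR or DESeq2 in a comparison, 504 values were computed under an alternative: 435 stayed on the same side of the threshold, 17 passed newly, 52 no longer passed, and none of the 504 changed sign. Values near 0 that were not called did change sign in some fits, as for Dlk1 between the lines in estrus (log2FC -0.01, and 0.08 without ctrl estrus replicate 5). The number of imprinted genes called in estrus between the lines was 2, 3 by DESeq2, with the replicate number as a block and in 1 fit of all libraries, and 4 with all genes of at least 1 count kept. In diestrus it was 1, and 2 by DESeq2, by limma-voom, with at least 1 count and with the replicate number as a block. Over both stages it was 3, and 5 by DESeq2 and 6 by limma-voom. For the interaction it was 0, and 2 by DESeq2. Leaving out 1 library gave 1 to 2 between the lines in estrus (1 without ctrl estrus replicate 1, 3 or 4 or any FL1 estrus library), 1 to 2 in diestrus (2 without ctrl diestrus replicate 1 or 2), 2 to 4 over both stages (2 without FL1 estrus replicate 2 or 4, ctrl diestrus replicate 3 or FL1 diestrus replicate 4), 3 to 6 between the stages in ctrl (3 without ctrl estrus replicate 3 or 4 or ctrl diestrus replicate 4), 6 to 9 in FL1 and 0 to 0 for the interaction. Nap1l5 between the stages in FL1 (adjusted p = 0.148) and Zrsr1 (0.0524) were not called in 1 fit of all libraries. Over all genes, DESeq2 called 670 against edgeR's 311 in estrus, 891 against 545 in diestrus and 1234 against 954 over both stages. It called 771 against 380 between the stages in ctrl and 148 against 8 for the interaction. In estrus the replicate block called 230 of 13374, 1 fit of all libraries 531 of 14154, and the fit with at least 1 count 477 of 25942. In diestrus limma-voom called 567 of 13259, the replicate block 498 of 13259 and the fit with at least 1 count 846 of 25729. Over both stages limma-voom called 1143 of 14154. With 1 library left out, 175 to 418 of all genes were called between the lines in estrus and 349 to 594 in diestrus. Over both stages the range was 812 to 1056. Between the stages it was 176 to 516 in ctrl and 1582 to 2316 in FL1, and for the interaction 0 to 15. The cause of these changes was not tested.

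Same-numbered libraries were different animals, and their deviations correlated by -0.10 to 0.13, with 1 of 20 pairs above 0.1, so the numbers do not pair the samples. With the replicate block, edgeR's adjusted p was 0.0541 for Dlk1 and 0.0543 for Peg3 between the stages in ctrl, 0.0745 for Nap1l5, 0.0703 for Tfpi2, 0.0568 for Gatm and 0.0537 for Tet1 between the stages in FL1, 0.0598 for Dnmt3a between the lines in diestrus and 0.0540 for Inpp5f over both stages, all called without it. Calls gained with it were Peg10 between the lines in estrus (0.0340), Meg3 in diestrus (0.0330), Nnat over both stages (0.0386) and between the stages in FL1 (0.0343), and Padi6 between the stages in FL1 (0.0282). The counts of called pairs of neighbours stayed at 2 with another prior count and with RLE. Rian, Mirg and Tfpi2 had as few as 1, 2 and 5 counts in a library, so counting error limits the precision of their values.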
